A study of Mus musculus with 42 samples.

Results

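The type I interferon response genes described here are a module of 34 mouse genes, chosen by symbol with earlier results of these data known, and each was found by its Ensembl identifier in both count tables of the series. They are 34 of 36604 genes in the joint soft tissue table and 34 of 54752 in the lymph node table, and all 34 passed the low-count filter in both. RNA was sequenced from wild-type C57BL/6 mice in a study of knee arthroplasty, the surgical replacement of knee joint surfaces with an implant. Joint soft tissue gave 24 libraries in 6 groups of 4, labelled RST day 3, RST day 7, RST day 14, RST day 21, RST day 35 and LST day 35. What RST and LST stand for is not written in the labels, and LST was sampled on day 35 only, so RST on days 3 to 21 differed from LST in label and day at once. Lymph nodes gave 18 libraries in 6 groups of 3, labelled Implant, ContraImplant and NoImplant on days 7 and 14. The column names of the count table add surgery and the mouse: Implant nodes carry both implant and surgery, ContraImplant nodes are from the same mice and carry implant without surgery, and NoImplant nodes are from other mice and carry neither. Implant against NoImplant thus differed in implant and surgery at once, and their parts cannot be told apart. In the labels' descriptions Implant and NoImplant nodes are marked R and ContraImplant nodes L. The labels used here give no age or sex.

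Type I interferons are secreted proteins that cells release when sensors in the cytosol or endosome meet nucleic acids. They bind the receptor chains Ifnar1 and Ifnar2, whose kinases are Jak1 and Tyk2. Factors that include Stat2 and Irf9 then bind a short promoter element, the interferon-stimulated response element, which switches on a broad set of antiviral genes. The response is known above all from viral infection, and it is also seen in tissues that hold dying cells and recruited myeloid cells.

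Because these factors act through the element, its core was searched for in the RefSeq promoters of the members (build GRCm38.p6, 250 bases before to 50 after each start). The motif was GAAANNGAAA on either strand, which reads TTTCNNTTTC on the other, and overlapping matches were each counted. Promoters were found for 25 of the 34 members, and 14 of the 25 (56%) held the motif, against 3.99% of the 27025 genes in the same table. A promoter with 2 or more matches was found for 8 of the 25 members (32%) and for 0.266% of all genes. Ifit2, Irf7, Irf9, Herc6, Oasl1, Oasl2, Cmpk2, Isg20, Xaf1, Ifi44 and Ifi35 had a promoter without these letters in the window. The following sites upstream of the start are shown 5′ to 3′ on the gene's strand, with the matched core in capitals, to let the eye compare members of different roles.
Isg15 (chr4:156200871-156200900, minus strand): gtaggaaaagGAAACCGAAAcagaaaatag
Oas1a (chr5:120907520-120907549, minus strand): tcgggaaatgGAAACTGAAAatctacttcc
Oas1g (chr5:120887606-120887635, minus strand): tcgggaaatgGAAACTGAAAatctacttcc
Oas3 (chr5:120777715-120777744, minus strand): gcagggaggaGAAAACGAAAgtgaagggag
Ifit1 (chr19:34640794-34640823, plus strand): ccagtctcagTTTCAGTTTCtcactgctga
Bst2 (chr8:71537577-71537606, minus strand): ccaggaaaatGAAACTGAAAggctgcagtt
Rsad2 (chr12:26456553-26456582, minus strand): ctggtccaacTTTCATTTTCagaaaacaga
Trim30a (chr7:104465210-104465239, minus strand): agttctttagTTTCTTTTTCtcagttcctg
The sites of Oas1a and Oas1g, neighbouring genes of the Oas cluster on chromosome 5, had the same 30 bases. A match describes the sequence and is no evidence of binding in these tissues.

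Total counts ranged from 17842090 to 28024003 per joint library and from 22041900 to 44371001 per node library. The members took 0.0125% to 0.106% of the counts in joint libraries and 0.125% to 0.462% in nodes. Levels are given as CPM, a gene's share of a library's counts, on the TMM scale, and a gene was called when edgeR's quasi-likelihood test gave a Benjamini-Hochberg adjusted p below 0.05 over all 16149 joint or 18312 node genes tested. The joint libraries were rich in muscle transcripts, since 12 markers of mature skeletal muscle summed to 211000 to 229000 CPM in LST day 35. The node libraries carried T cell markers at 1870 to 2620 summed CPM and B cell markers at 3080 to 6160. In such bulk tissue, fewer cells of a type and less RNA per cell cannot be told apart. Nothing in the labels says that joint replicates came from separate mice, so p-values for joint tissue speak only of the variation among these libraries, which may be technical.

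In joint soft tissue the members were highest on RST day 3 and lowest in the day 35 groups. Averaged over the 34 genes as log2 CPM, the 4 libraries of RST day 3 stood at 4.10, 3.44, 3.15 and 4.26, a group mean of 3.74 ± 0.53 (SD, n = 4). RST day 7 stood at 2.87, 2.95, 3.27 and 3.05, RST day 14 at 2.84, 3.11, 2.10 and 2.38, and RST day 21 at 2.24, 2.47, 1.74 and 2.10. RST day 35 stood at 1.37, 1.51, 1.67 and 1.72, and LST day 35 at 1.40, 1.37, 1.40 and 1.48. The RST day 3 libraries overlapped those of day 7, those of day 7, day 14 and day 21 overlapped from one day to the next, and each RST library of days 3 to 21 lay above each library of the day 35 groups. All 34 members had their highest RST group mean on day 3, and for 30 of them the mean was lower at each later day. The exceptions were Ifit3b, Cmpk2, Ifi27l2a and Ifi35.

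**Figure D1:**
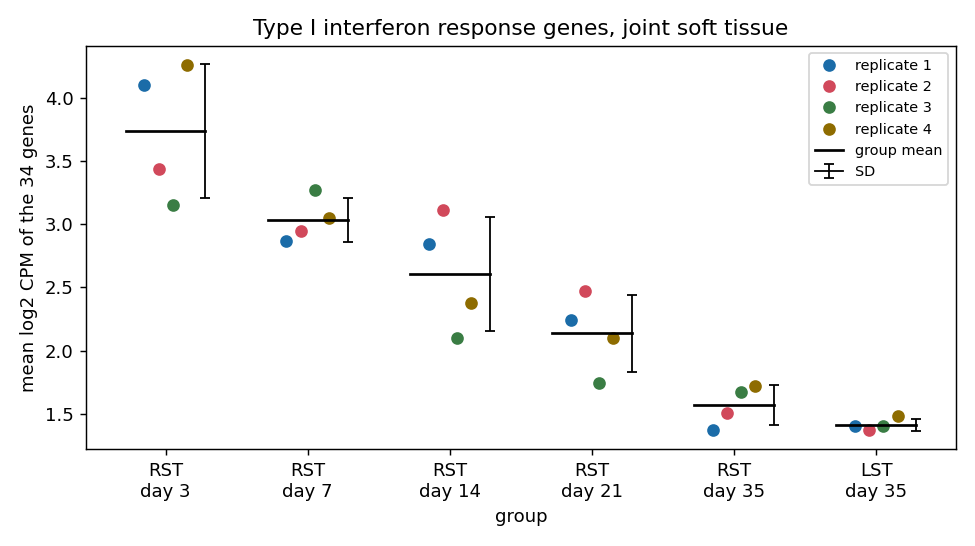
Mean log2 CPM of the 34 type I interferon response genes (y axis) in each joint soft tissue library by group (x axis), with points coloured by replicate, black lines for group means and bars for the SD of 4 libraries. The RST day 3 libraries spread from 3.15 to 4.26 and the LST day 35 libraries from 1.37 to 1.48.

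Against LST day 35, 33 of 34 members were higher on RST day 3, with a median log2 fold change of 2.29, beside 0.09 over all genes tested. On that day 38.6% of all genes tested were called higher. On RST day 7, 31 members were higher (background 41.0%) and 1 was lower (background 35.1%), with a median of 1.69. On RST day 14, 29 were higher (background 33.4%) with a median of 1.31, and on RST day 21, 16 were higher (background 21.7%) with a median of 0.81. The 4 comparisons share the LST libraries and are not independent. The count for day 21 was 8 without RST day 21 replicate 2 and 10 without LST day 35 replicate 2.

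On RST day 35, when label alone differed, no member was called against LST, while 2.92% of all genes tested were called higher. With edgeR's quasi-likelihood test the smallest adjusted p among members was 0.251, for Ifitm3, and DESeq2 also called 0. An unadjusted edgeR p below 0.05 was found for 1 member and for 2021 of 16149 genes. The median log2 fold change of the members was 0.19, and 26 of 34 values were above 0. Ifitm3 measured 30.8, 37.5, 43.3 and 45.6 CPM in RST day 35 and 30.4, 28.6, 30.3 and 28.4 in LST day 35, so its groups did not overlap although the test was not passed.

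**Figure D2:**
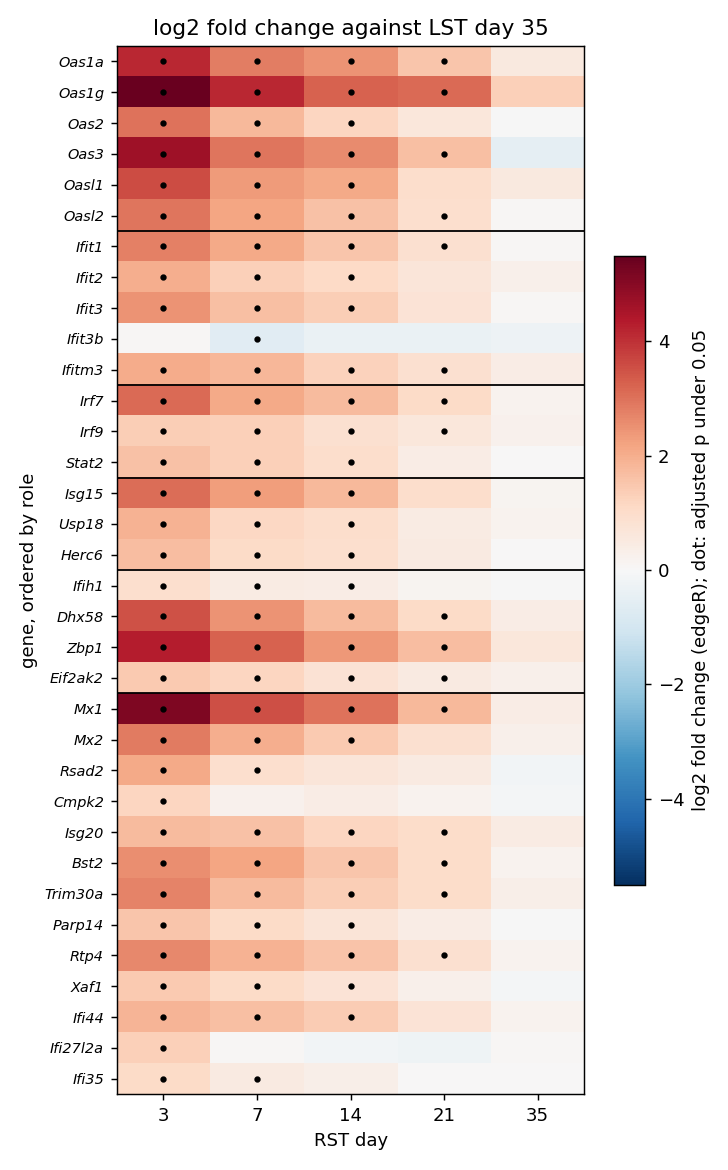
Log2 fold change (colour, edgeR) of each of the 34 genes (y axis, ordered by role with black lines between roles) on each RST day (x axis) against LST day 35, with a dot where the adjusted p was under 0.05. The columns hold 33, 32, 29, 16 and 0 dots from day 3 to day 35, and the dot of Ifit3b on day 7 is a lower level.

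The OAS family had the largest median difference of the 6 role groups on RST day 3. Its enzymes make a short oligoadenylate that activates RNase L, which cuts RNA in infected cells, while Oasl1 and Oasl2 are relatives. In mm10 the Oas1a, Oas1g, Oas2 and Oas3 genes lie together between chr5:120730333 and chr5:120907521, and Oasl1 and Oasl2 lie between chr5:114896936 and chr5:114937915. All 6 were higher on RST days 3, 7 and 14 and 4 of 6 on day 21 (background 38.6%, 41.0%, 33.4% and 21.7%). The group medians were 3.85, 2.58, 2.28 and 1.24 on the log2 scale. Oas1a measured 16.3, 11, 8.84 and 18.7 CPM on RST day 3, 4.63, 5.66, 6.22 and 5.62 on day 7, and 0.801, 0.821, 0.596 and 0.921 in LST. Every day 3 library lay above every day 7 library, and the fold change of day 3 over LST was 4.13 ± 0.30 (SE) on the log2 scale (edgeR adjusted p = 2.25e-10). By RST day 35 Oas1a stood at 0.807, 0.917, 1.48 and 1.28 CPM, which overlapped LST. Oas2 measured 16.2, 17.1, 12.6 and 27.6 CPM on RST day 3 and 1.74, 2.92, 2.47 and 2.25 in LST, a log2 difference of 2.97 ± 0.28 (edgeR adjusted p = 5.09e-09). Oas1g was the scarcest member in LST, at 0, 0.0912, 0.17 and 0.102 CPM against 4.5, 3.08, 2.35 and 6.98 on RST day 3. Its log2 fold change of 5.43 ± 0.63 was the largest of any member and rested on few LST counts. Oas1a and Oas1g are close copies, so how the authors' counting shared reads between them is uncertain.

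The IFIT proteins bind viral RNA and block its translation, and Ifitm3 sits in endosomal membranes and hinders viral entry. Of the 5 genes, 4 (all but Ifit3b) were higher than LST on RST days 3, 7 and 14 and 2 on day 21. The shares over all genes on these days were 38.6%, 41.0%, 33.4% and 21.7%. Ifit1 measured 25.4, 10, 7.56 and 18.6 CPM on RST day 3, 9.3, 7.82, 10.8 and 10.5 on day 7, and 2.36, 1.69, 2.34 and 2.66 in LST. Day 3 and day 7 overlapped, while both lay wholly above LST, with a day 3 log2 difference of 2.76 ± 0.32 (edgeR adjusted p = 1.25e-07). Ifitm3 was the most abundant member per kilobase of exon, at 179 ± 38.1 CPM per kb on RST day 3 and 43.4 ± 1.59 in LST (SD, n = 4). In CPM it measured 143, 105, 93 and 143 on RST day 3, 95.9, 94.8, 117 and 113 on day 7, and 77.6, 87.7, 55.4 and 65 on day 14. It fell from day 7 to day 14 by 0.56 ± 0.16 on the log2 scale (edgeR adjusted p = 0.0103), with no overlap between those days.

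Ifit3b differed from Ifit3, its near-identical neighbour on chromosome 19, in its level relative to LST. The longest annotated transcripts of the pair agreed at 98% of their aligned bases, and their promoters at 99.1% of 218 aligned bases, each with the same 2 matches of the response element. In GENCODE M21 Ifit3 starts at chr19:34583531 and Ifit3b at chr19:34607970, each downstream of its RefSeq start. Bases shortly after the RefSeq start were found in an annotated transcript for Ifit3 and not for Ifit3b. The 250 bases before each RefSeq start are printed to show how close the copies are, with the matched core in capitals, both on the plus strand of GRCm38.p6.
Ifit3 (chr19:34583279-34583528): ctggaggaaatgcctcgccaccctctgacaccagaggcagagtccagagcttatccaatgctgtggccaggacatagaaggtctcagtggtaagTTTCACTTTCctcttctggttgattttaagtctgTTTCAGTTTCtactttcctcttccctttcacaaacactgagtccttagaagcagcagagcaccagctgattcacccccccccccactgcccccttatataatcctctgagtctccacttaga
Ifit3b (chr19:34607707-34607956): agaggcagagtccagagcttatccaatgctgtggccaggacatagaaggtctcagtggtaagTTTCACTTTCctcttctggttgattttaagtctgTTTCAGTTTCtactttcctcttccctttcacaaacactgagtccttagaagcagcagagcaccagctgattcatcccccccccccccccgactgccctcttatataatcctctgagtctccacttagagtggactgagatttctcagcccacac
Ifit3 measured 29.5, 9.62, 8.93 and 25.9 CPM on RST day 3 and 3.63, 3.74, 2.81 and 3.07 in LST. Ifit3b measured 7.75, 3.67, 5.21 and 7.43 CPM on RST day 3, 3.38, 3.94, 3.86 and 3.67 on day 7, and 5.79, 9.35, 3.83 and 3.89 in LST. The ratio of Ifit3b to Ifit3 was 0.263 to 0.584 on RST day 3 and 1.27 to 2.5 in LST, and it was 0.143 to 0.365 over the 18 nodes. From RST day 3 to day 7 both fell, Ifit3b by 0.69 ± 0.24 on the log2 scale (edgeR adjusted p = 0.0255) and Ifit3 by 0.82 ± 0.31 (edgeR adjusted p = 0.0366). Ifit3b was nevertheless the single member that did not pass the joint test of any change over the 5 RST days (edgeR adjusted p = 0.117), and the only one called lower than LST, on day 7, by -0.62 ± 0.24 (adjusted p = 0.0244). That call was lost without LST day 35 replicate 2, where the log2 difference was -0.28, and without RST day 7 replicate 1, where it was -0.58. With library totals and no scaling factor the difference was 0.02. How reads common to the copies were counted is not given in the sources used here, so the split between them is uncertain.

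**Figure D3:**
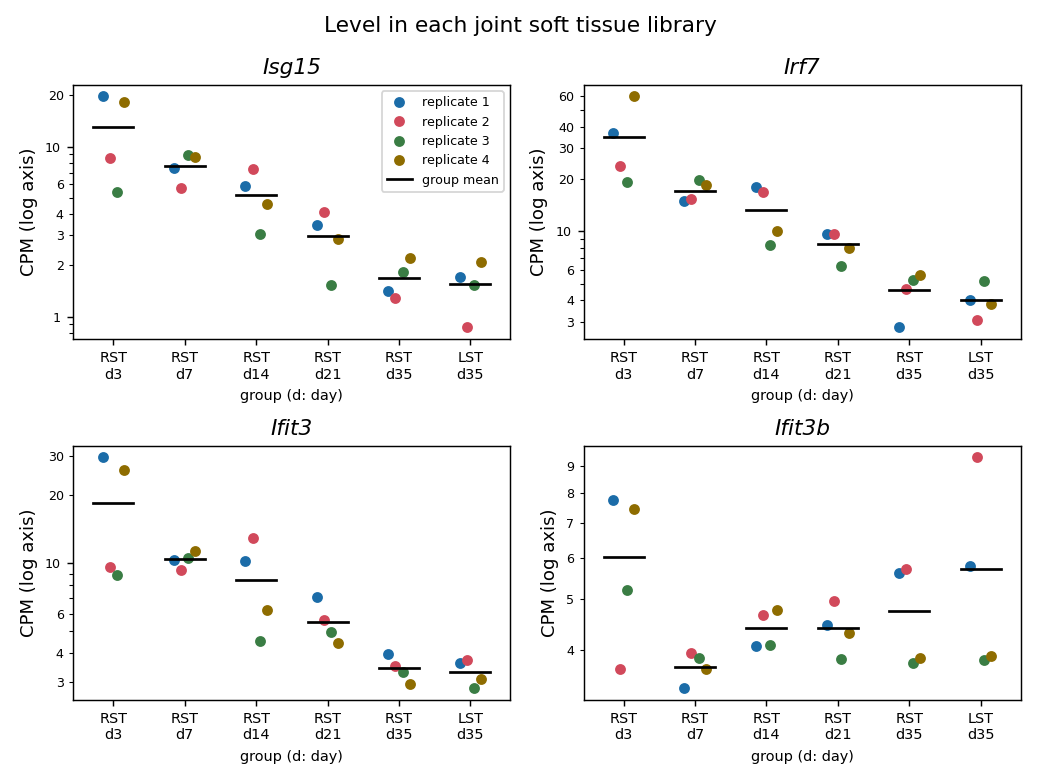
CPM (y axis, log scale, 1 scale per panel) of Isg15, Irf7, Ifit3 and Ifit3b in each joint soft tissue library by group (x axis), with points coloured by replicate and black lines for group means. Isg15, Irf7 and Ifit3 step down toward the day 35 groups, while the highest Ifit3b value, 9.35, is an LST library.

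All 3 transcription factors of the response were higher than LST on RST days 3, 7 and 14 (background 38.6%, 41.0% and 33.4%). Irf7, which drives the later wave of interferon genes, measured 36.6, 23.7, 19.2 and 59.7 CPM on RST day 3, 14.9, 15.3, 19.7 and 18.4 on day 7, and 4, 3.1, 5.2 and 3.79 in LST. Only the top of day 7 reached the bottom of day 3, and the day 3 log2 difference to LST was 3.11 ± 0.32 (edgeR adjusted p = 1.86e-08). Irf9, a DNA-binding partner of Stat2, measured 24.8, 20.6, 18.4 and 25.3 CPM on RST day 3, 19.8, 21.3, 23.6 and 19.8 on day 7, and 9.28, 8.39, 8.18 and 8.65 in LST. It differed between days 3 and 7 by -0.08 ± 0.12 and did not pass that test, and it fell from day 7 to day 14 by 0.39 ± 0.12 on the log2 scale (edgeR adjusted p = 0.0168). Stat2 was 1.63 ± 0.20 above LST on day 3. Irf7 overlaps Phrf1 on the opposite strand, and the strand setting of the counting is not given in the sources used here. Irf9 overlaps Rnf31 on the same strand, so how reads of the overlap were counted is uncertain.

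The ISG15 system attaches the ubiquitin-like protein Isg15 to other proteins, with Herc6 as a ligase in mice and Usp18 as the enzyme that removes it and also dampens the receptor. All 3 genes were higher than LST on RST days 3, 7 and 14 (background 38.6%, 41.0% and 33.4%). None was called on day 21 (background 21.7%). Isg15 measured 19.7, 8.51, 5.43 and 18.4 CPM on RST day 3, 7.46, 5.69, 8.93 and 8.68 on day 7, and 1.7, 0.866, 1.53 and 2.1 in LST. The lower pair of day 3 libraries overlapped day 7 and the higher pair lay above it, and the log2 difference to LST was 3.07 ± 0.38 (edgeR adjusted p = 3.28e-07). Herc6 measured 5.94, 4.98, 4.27 and 5.62 CPM on day 3 and 1.51, 1.55, 1.36 and 2.05 in LST, with no overlap and a log2 difference of 1.69 ± 0.21 (edgeR adjusted p = 3.43e-07). Usp18 was 1.93 ± 0.28 above LST on day 3.

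The nucleic acid sensors ranged widely. Zbp1, which senses Z-form nucleic acid and can trigger necroptosis, measured 14.3, 9.59, 7.69 and 21.6 CPM on RST day 3 and 0.565, 0.684, 0.511 and 0.921 in LST, a log2 difference of 4.31 ± 0.37 (edgeR adjusted p = 1.7e-09). Dhx58, the regulatory helicase LGP2, measured 14.2, 7.82, 5.68 and 13.4 CPM on day 3 and 1.18, 0.912, 0.639 and 0.921 in LST, a log2 difference of 3.49 ± 0.31 (edgeR adjusted p = 2.28e-09). Both stayed above LST on day 21 and fell from day 7 to day 14, Zbp1 by 0.83 ± 0.30 and Dhx58 by 0.73 ± 0.27 on the log2 scale. Dhx58 overlaps the antisense gene Dhx58os, so its reads may include those of that gene. Ifih1, the long double-stranded RNA sensor MDA5, had the smallest called change on day 3, 0.93 ± 0.17, from a level of 7.14 CPM in LST. Eif2ak2, the kinase PKR that halts translation, was 1.42 ± 0.17 above LST on day 3 and 0.50 ± 0.18 on day 21.

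All 13 other antiviral effectors were higher than LST on RST day 3, and 11, 9 and 5 were higher on days 7, 14 and 21. The shares over all genes on the 4 days were 38.6%, 41.0%, 33.4% and 21.7%. Bst2, the tetherin that holds virions at the cell surface, measured 57, 32, 27 and 61.7 CPM on day 3, 34, 29.1, 37.7 and 36.5 on day 7, and 6.59, 7.98, 8.48 and 7.32 in LST. Trim30a measured 23.6, 22.6, 16.4 and 31.9 CPM on day 3, 8.09, 12, 15.5 and 11.8 on day 7, and 3.67, 2.92, 3.79 and 4.04 in LST. Bst2 overlapped between days 3 and 7, while Trim30a did not and fell by 0.99 ± 0.21 on the log2 scale (edgeR adjusted p = 0.000833). Mx1, a GTPase gene, had the second largest day 3 difference of any member, 5.12 ± 0.53, from 0.323 CPM in LST to 11.5. Mx2 is annotated as a polymorphic pseudogene in GENCODE M21.

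A few effectors left the common course early. Cmpk2, a mitochondrial nucleotide kinase that lies beside Rsad2 (viperin) on chromosome 12, measured 16.4, 6.26, 6.37 and 12.7 CPM on RST day 3 and 5.04, 4.79, 4.43 and 3.84 in LST. On day 7 it stood at 5.06, 6.01, 5.69 and 4.58 CPM, which overlapped LST, and it was called on day 3 only (log2 difference 1.20 ± 0.27, edgeR adjusted p = 0.000536). Ifi27l2a measured 33.9, 27.3, 24 and 47.1 CPM on day 3 and 13.4, 14.7, 14.1 and 13.7 on day 7, with LST at 12.2, 13.8, 12.1 and 15.5. It fell from day 3 to day 7 by 1.24 ± 0.25 on the log2 scale (edgeR adjusted p = 0.000415) and was not called against LST after day 3. Rsad2 was called against LST on days 3 and 7, with log2 differences of 2.10 ± 0.35 and 0.92 ± 0.35.

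From one RST day to the next the calls were all falls. Over the 5 RST days 33 of 34 members changed (background 79.6%). From day 3 to day 7, 24 members fell (background 22.5%) with a median of -0.77, and the count was 13 without RST day 3 replicate 4 and 14 with no scaling factor. Those that did not pass were Ifit1, Ifitm3, Irf9, Stat2, Isg15, Eif2ak2, Isg20, Bst2, Xaf1 and Ifi44. From day 7 to day 14, 5 members fell (14.7%, below the background of 18.0%), with a median over all members of -0.36. They were Ifitm3, Irf9, Dhx58, Zbp1 and Bst2. That count moved with single libraries, being 0 without RST day 14 replicate 3, 1 without RST day 7 replicate 3, 2 without RST day 7 replicate 4, 2 without RST day 14 replicate 4, 8 without RST day 7 replicate 1 and 13 without RST day 14 replicate 2.

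No member passed the edgeR test at the later steps. From day 14 to day 21 edgeR called 0 members (background 0.650%), the median was -0.52 and DESeq2 called 2. An unadjusted edgeR p below 0.05 was found for 18 of 34 members and for 4151 of 16149 genes. The edgeR count for that step was 4 without RST day 14 replicate 3 and 9 without RST day 21 replicate 2. From day 21 to day 35 edgeR called 0 members (background 3.89%), the median was -0.57 and DESeq2 called 6. Unadjusted edgeR p was below 0.05 for 18 of 34 members and for 3540 of 16149 genes. The smallest adjusted p of that step was 0.0548, for Bst2, which stood at 14.7, 18.5, 9.98 and 17.4 CPM on day 21 and 6.83, 9.11, 9.56 and 9.44 on day 35. Without RST day 21 replicate 3, the library with the lowest Bst2 of its group, 8 members were called for that step.

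Libraries of a group differed across the members together. RST day 3 replicate 4 was the highest of its group for 23 of 34 members and replicate 3 the lowest for 30. On RST day 14 replicate 2 was highest for 28 and replicate 3 lowest for 29, and on RST day 21 replicate 2 was highest for 25 and replicate 3 lowest for 24. Monocyte and macrophage markers (15 genes, all called higher on RST day 3, background 38.6%) moved with the members across groups. Their summed CPM was 2900, 2330, 1900 and 2330 on RST day 3. Day 7 libraries held 1490 to 2080, day 14 libraries 890 to 1630 and day 21 libraries 437 to 1180, while the sums of RST day 35 ran from 309 to 565 and those of LST from 143 to 202. Within RST day 14 and RST day 21 replicate 2 was also the highest and replicate 3 the lowest for these markers, while within day 3 replicate 4, with a marker sum of 2330, was not the highest. Muscle markers were low early, at 81900 to 111000 summed CPM on RST day 3 and 63400 to 106000 on day 7. They ran the other way from the members only later, at 126000 to 178000 on day 14, 162000 to 214000 on day 21 and 207000 to 211000 on day 35. The part of either marker set in the members' levels was not tested. On RST day 35, 7 of 15 monocyte and macrophage markers were still above LST (background 2.92%), with a median log2 difference of 1.10, while no member was called.

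Interferon ligands had few counts in both tissues. Of 20 type I and III ligand genes listed, 4 were in the joint table, and none passed the low-count filter. Their summed counts over the 4 libraries of a group were 1, 1, 6, 4 and 4 from RST day 3 to day 35 and 0 in LST, and at this depth differences between groups were not detectable. In nodes all 20 were in the table, 13 were at 0 in every library, and the others summed to at most 0.255 CPM. Ifng, the type II interferon, was at 0 CPM in all 4 RST day 3 libraries.

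The receptor and its signalling partners, a list of 9 genes that includes the member Usp18, were mostly higher early. On RST day 3, 8 were higher than LST (background 38.6%) and 1 was lower (background 30.1%), with a median of 1.72. Ifnar1 measured 42.6, 43.4, 39.9 and 40.7 CPM on day 3 and 17.3, 15.7, 15.5 and 16.1 in LST, and Ifnar2 was 2.19 ± 0.24 above LST on the log2 scale. Jak1 was the gene that fell, by 0.18 ± 0.07. Socs3, a feedback inhibitor induced by many cytokines, had the smallest p of the list and a log2 difference of 3.89 ± 0.30 (edgeR adjusted p = 4.85e-10). Of 19 genes of nucleic acid sensing upstream of the ligands, 17 were higher (background 38.6%) and 1, Mavs, was lower (background 30.1%). Unc93b1, Sting1, Myd88 and Samhd1 led by p with log2 differences of 3.28, 2.62, 2.27 and 1.5.

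Other interferon-induced genes outside the module took a like course. Of 51 list entries tested, 47 were higher than LST on RST day 3 (background 38.6%) and 1, Tnfsf10, was lower (background 30.1%). The median was 1.76, and on day 35 none was called (background 2.92% higher). The entries Ifi211 and Mnda were matched to the same gene, which was thus counted more than once. Slfn9, Ms4a4c, Ifi209 and Slfn1 had the smallest p, with log2 differences of 4.2, 6.5, 4.55 and 5.05. Of 17 genes of the interferon gamma axis 12 were higher on day 3 (background 38.6%) and 1, Gbp6, was lower (background 30.1%), with a median of 1.01. The called genes included the immunoproteasome subunits Psmb8 and Psmb9 and the peptide transporter Tap1. The summed CPM of the interferon gamma list was 261 to 339 on RST day 3 and 199 to 236 in LST. Of the 11 markers of plasmacytoid dendritic cells, a major source of type I interferon, 8 were tested on RST day 3. Of these 3 were higher than LST (background 38.6%) and 2 lower (background 30.1%), with a median of -0.22. Both counts were near the share over all genes. Irf8, a factor shared with monocytes and listed among the sensing genes too, was higher by 2.13 ± 0.19 on the log2 scale (edgeR adjusted p = 3.27e-09), and Pacsin1 by 0.80 ± 0.34 and Tcf4 by 0.21 ± 0.09. Cox6a2 and Cd209d were lower, with log2 differences of -1.43 ± 0.16 and -0.75 ± 0.31. The defining gene Siglech was at 0.377 to 0.684 CPM on RST day 3 and 0.365 to 1.02 in LST. The sum of that list, 386 to 537 CPM on day 3 and 924 to 1040 in LST, was mostly Cox6a2 and Tcf4, and Cox6a2 is also a muscle gene.

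In lymph nodes the members were described on the node table's own scale, which was set apart from that of the joint. The mean log2 CPM of the 34 genes was 4.41, 4.43 and 6.62 in NoImplant day 7, 4.55, 4.60 and 5.36 in NoImplant day 14, and 4.94, 4.77 and 4.52 in ContraImplant day 7. It was 4.86, 4.63 and 4.19 in ContraImplant day 14, 4.60, 4.87 and 4.45 in Implant day 7, and 4.89, 5.6 and 4.35 in Implant day 14. The third library of NoImplant day 7 lay above all other nodes, while the other 2 of its group, at 4.41 and 4.43, lay just below every library of Implant day 7, ContraImplant day 7 and NoImplant day 14. The remaining groups overlapped one another. Per kilobase of exon Ifitm3, Ifi27l2a and Bst2 were the highest in Implant day 7 nodes, at 160 ± 14.6, 135 ± 36.5 and 115 ± 5.9 CPM per kb (SD, n = 3), and these were also the top 3 on RST day 3.

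**Figure D4:**
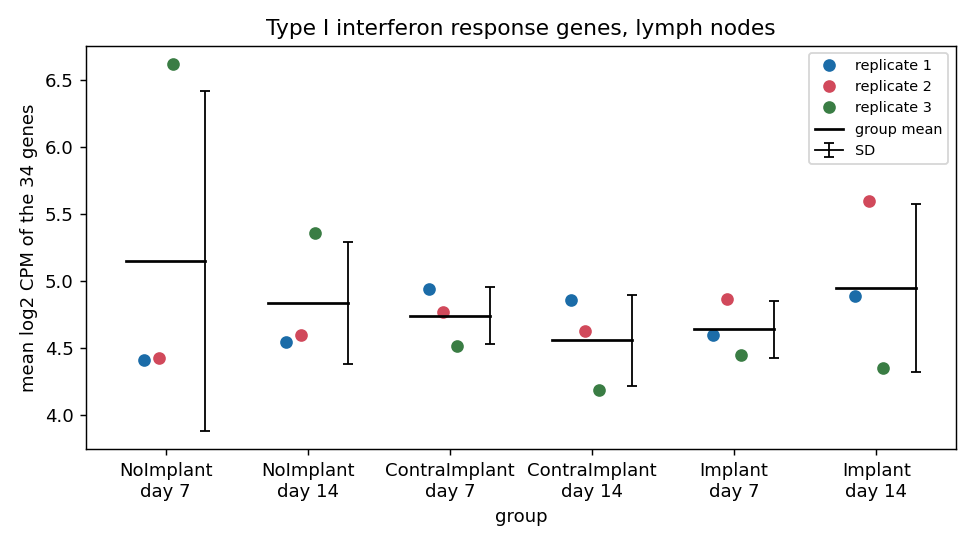
Mean log2 CPM of the 34 type I interferon response genes (y axis) in each lymph node library by group (x axis), with points coloured by replicate, black lines for group means and bars for the SD of 3 libraries. One NoImplant day 7 library stands at 6.62 and all other node libraries lie between 4.19 and 5.6.

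One node library, NoImplant day 7 replicate 3, stood apart. It was the highest of all 18 node libraries for each of the 34 members. Against the mean of the other 2 libraries of its group, its ratio was over 2 for 33 of 34 members and over 4 for 19, with a median of 4.33. Over all genes with a level the median ratio was 0.991, and 1.89% were over 2. The library was singled out after its values were seen, so these ratios are a description. Irf7 stood at 428 CPM in it and at 59.3 and 50.6 in the other 2, and Isg15 at 80.8 against 9.19 and 8.45. Ifit3, at 116 against 7.78 and 8.04, had the largest ratio, 14.7, and Ifih1 the smallest, 1.95. Ifit3b was high in the same library, at 25.3 CPM against 2.04 and 1.94.

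Other genes of the pathway in that library were measured too. The sums of the receptor list (2500 CPM) and the sensing list (4130) lay above the other nodes, at 1910 to 2360 and 2950 to 3690. Against the mean of the other 2 libraries of its group their median ratios were 1.06 and 1.13. A ratio over 2 was found for 2 of 9 and 3 of 19 of their genes, the member Usp18 among them. Of 50 other interferon-induced genes 22 were more than 2 times the mean of the other 2 libraries, and their sum of 10600 CPM lay above the range of 5860 to 7630 in the remaining nodes. The gene with the largest ratio among them was Cxcl10, a chemokine, at 4.77. Of 18 genes of the interferon gamma axis none was more than 2 times that mean, with a median ratio of 1.2, although their sum of 3430 CPM also lay above the 2570 to 3070 of the other nodes. Its marker sums for monocytes and macrophages (2300 CPM), T cells (2620), B cells (5150) and plasmacytoid dendritic cells (1760) lay within or at the edge of the range of the other 17 nodes. Among neutrophil markers 5 of 11 had a ratio over 2, led by Ngp at 31.1, from a low sum of 74.6 CPM that lay within the range of the other nodes. Erythroid markers had a median ratio of 8.16 and a sum of 230 CPM, where the other nodes ranged from 19.6 to 723. The plasma cell sum of 446 CPM lay below the other nodes, at 485 to 3060, and the lymph node stroma sum of 3540 lay above them, at 1320 to 3490. Against the other 2 libraries of its group, mature skeletal muscle markers had a median ratio of 0.24 and adipocyte markers of 0.441, with sums of 185 and 804 CPM that lay within the ranges of the other nodes. Whether these cells had a part in the members' levels was not tested.

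**Figure D5:**
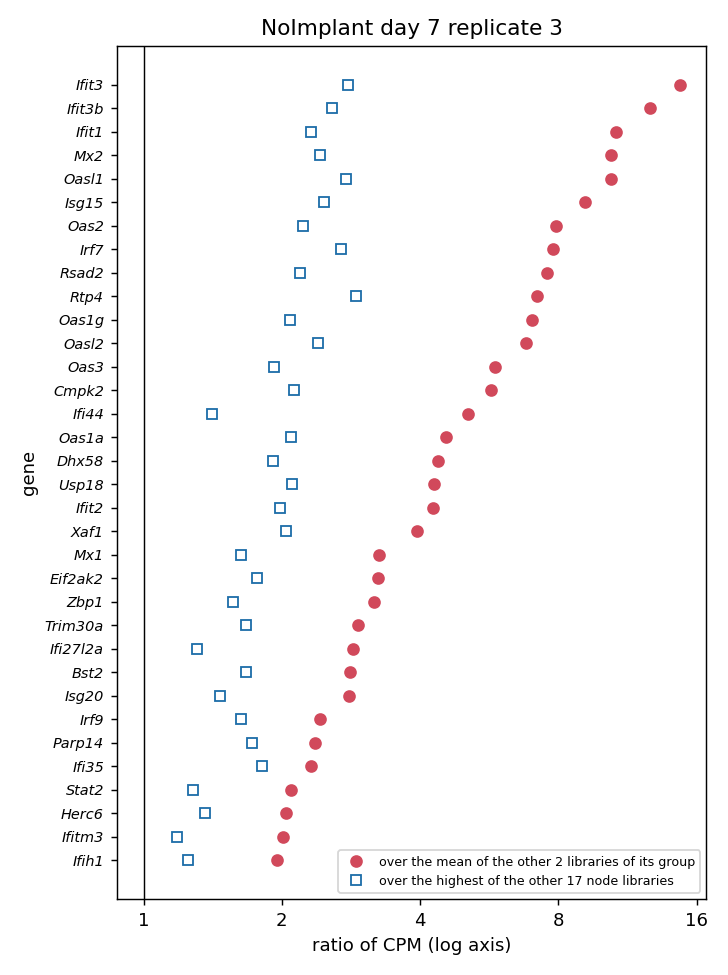
Ratio of CPM (x axis, log scale) in the NoImplant day 7 replicate 3 node for each of the 34 genes (y axis), over the mean of the other 2 libraries of its group (red circles) and over the highest of the other 17 node libraries (blue squares). All squares lie above 1, and the circles run from 1.95 for Ifih1 to 14.7 for Ifit3.

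No node comparison called a member with edgeR's quasi-likelihood test, and DESeq2 called none either. For Implant against NoImplant on day 7 the median log2 fold change was -0.97. An unadjusted p below 0.05 was found for 10 of 34 members and for 3326 of the 18312 genes tested. The smallest adjusted p was 0.129 (0.0437% of all genes tested were called). Bst2, with that smallest p, measured 97.7, 108 and 105 CPM in Implant and 132, 132 and 371 in NoImplant. Usp18 measured 26.9, 31.6 and 23.1 in Implant and 26.8, 26.1 and 113 in NoImplant, Dhx58 31, 35.4 and 26 against 24.1, 22.3 and 101, and Oas1g 0.891, 1.03 and 0.544 against 0.638, 0.636 and 4.48. Apart from Bst2, the Implant values of these genes lay near the 2 lower NoImplant libraries. Without NoImplant day 7 replicate 3 the median turned to 0.25, 27 of 34 values were above 0, 1 member had an unadjusted p below 0.05 and the smallest adjusted p was 0.272. The log2 difference of Irf7 went from -1.24 ± 0.65 to 0.45 ± 0.43 and that of Ifit3b from -2.28 ± 0.99 to 0.00 ± 0.85, while that of Bst2 went from -1.03 ± 0.33 to -0.36 ± 0.22.

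The other comparisons that use this library turned with it in the same way. For ContraImplant against NoImplant on day 7 the median was -0.86 with it and 0.37 without it. With it 2 members and 1349 of 18312 genes had an unadjusted p below 0.05 (0% of all genes called). Without it 3 members did. For NoImplant day 14 against day 7 the median was -0.64 with it and 0.51 without it. Unadjusted p was below 0.05 for 2 members and 3456 of 18312 genes with it (0.0164% of all genes called). Without it the count was 6 members, with a smallest adjusted p of 0.282. For the difference of the Implant against NoImplant contrast between day 14 and day 7 the median was 0.98 with it and -0.06 without it. Here 1 member and 921 of 18312 genes had an unadjusted p below 0.05 with it (0% called), and 0 members without it. In all of these edgeR and DESeq2 called 0 members.

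On day 14 Implant nodes showed a median log2 fold change of 0.24 against NoImplant, with 25 of 34 values above 0. An unadjusted p below 0.05 was found for 1 member (Stat2, 0.51 ± 0.21, edgeR adjusted p = 0.136) and for 5196 of 18312 genes. Of all genes 5.97% were called. Stat2 measured 131, 170 and 125 CPM in Implant and 95.7, 95.7 and 107 in NoImplant, with no overlap. For ContraImplant against NoImplant on day 14 the median was -0.28, with 0% of all genes called. Below an unadjusted p of 0.05 were 0 members and 1062 of 18312 genes. For day 14 against day 7 the median was 0.37 in Implant nodes and -0.18 in ContraImplant nodes, with 0% of all genes called in each. Unadjusted p was below 0.05 for 1 member (Bst2) and 1566 of 18312 genes in Implant nodes. In ContraImplant nodes it was so for 0 members and 970 genes.

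Implant and ContraImplant nodes of the same mouse allowed a closer comparison. On day 7 the Implant node differed from the ContraImplant node by -0.34, 0.10 and -0.07 in mean log2 CPM in the 3 mice, and on day 14 by 0.03, 0.97 and 0.16. The day 7 differences had both signs. The Implant node was above the other node for 3, 23 and 12 of 34 members in the 3 mice of day 7. On day 14 it was above for 20, 33 and 28 of 34 members. These counts have no share over all genes beside them. The 0.97 came from 1 mouse, that with 33 members. In that mouse Ifit1 measured 42.9 CPM in the Implant node and 10.1 in the ContraImplant node, and Irf7 measured 159 and 62.1. Over groups, without pairing by mouse, the median log2 fold change was -0.02 on day 7 and 0.43 on day 14. On day 7, 1 member (Ifitm3, -0.58 ± 0.25) and 3764 of 18312 genes had an unadjusted p below 0.05, with 0.715% of all genes called. On day 14, 0 members and 1550 genes did, with 0% called. The difference of this contrast between the days had a median of 0.47, with 0% of all genes called. Below an unadjusted p of 0.05 were 0 members and 334 of 18312 genes. With the animal as a block edgeR again called 0 members in each, and DESeq2 called 0. The block left more members with an unadjusted p below 0.05. On day 7 they were Bst2, Ifitm3, Ifih1, Ifi44 and Rsad2, lower in Implant nodes, and Stat2, higher. On day 14 all of them but Ifitm3 were higher in Implant nodes. The smallest edgeR adjusted p with the block was 0.0555 on day 7 (Bst2, -0.43 ± 0.06) and 0.274 on day 14 (Irf9, 0.39 ± 0.1). No share over all genes is given for the block.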

How the data were processed

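Per the labels' protocols, frozen tissue was lysed in RLT (nodes) or Trizol (joint), and NEBNext Ultra II libraries used 100 ng of RNA. The submitters' processing notes name fastp, STAR and mm10, without versions. The authors deposited raw counts per gene, 1 table per tissue. The counting program, its annotation and strand setting: not given in the sources used here. Symbols and positions are from GENCODE M21 (mm10).

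Analysis used edgeR 4.0.16 in R 4.3.3, with filterByExpr (minimum count 10), TMM scaling, quasi-likelihood F tests from 1 model for each tissue's 6 groups, Benjamini-Hochberg adjustment over all genes tested, threshold 0.05. This gave 10 joint and 11 node comparisons, not adjusted together. An SE is the size of a log2 fold change divided by the root of its F value. List levels are means of log2 CPM with a prior count of 2. The pipeline was tested on simulated data. DESeq2 1.42.0, other scalings, no filter, replicate blocks and leaving out each replicate were alternatives. No replicates agreed within sampling noise (lowest chi-square per degree of freedom 8.27). Node numbers pair Implant and ContraImplant samples by animal, with correlations of deviations of 0.11 to 0.35 on day 7 and 0.18 to 0.40 on day 14.

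The members and lists were chosen with earlier results of these data known. Members with values per library are those with the 2 smallest p per role in the test of any change over RST days and the 2 largest of any role, in nodes the smallest p per role in Implant against NoImplant on day 7, and members called against the majority. In joint tissue Oas1g, Ifit3, Mx1, Rsad2 and Ifi27l2a, and in nodes Isg15, Ifit1, Ifit3, Ifih1 and Stat2, were chosen after their values were seen. Of each list up to 4 genes with the smallest adjusted p were named.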

Additional observations from a re-analysis of the deposited data

Results flagged for a closer look

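Of 90 sets of 4 joint libraries checked (the mean of the 34 genes and each of the 14 joint genes of the naming rule in 6 groups), 1 held a library far from the others. Bst2 in RST day 35 replicate 1 stood at 6.83 CPM, while the other 3 libraries stood at 9.11, 9.56 and 9.44. Chance alone flags about 1 in 20 such sets. Node groups of 3 are too small for this check.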

How the results depend on the processing

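The counts of members called kept within 1.5 times the main count in 98 of 105 refits with another scaling, filter, tool or block. A main count of 0 that stayed at 0, as in all node comparisons, was taken as kept. Every count that moved was for a step from one RST day to the next. With no scaling factor the count was 14 for RST day 7 vs RST day 3, 18 for RST day 14 vs RST day 7 and 1 for RST day 21 vs RST day 14. With no filter on low counts it was 2 for RST day 21 vs RST day 14 and 8 for RST day 35 vs RST day 21, and with DESeq2 it was 2 and 6. Using no scaling factor shifted the median of all genes by 0.52, 0.63 and 0.29 (log2) on RST days 3, 7 and 14 against LST, and Ifit3b in RST day 7 vs LST day 35 then read 0.02. Beyond those shifts the cause was not tested. Leaving out 1 replicate gave 13 to 28 for RST day 7 vs RST day 3, 0 to 13 for RST day 14 vs RST day 7, 0 to 9 for RST day 21 vs RST day 14, 0 to 8 for RST day 35 vs RST day 21 and 8 to 18 for RST day 21 vs LST day 35. Against LST it gave 33 (RST day 3), 30 to 32 (RST day 7) and 27 to 29 (RST day 14), with 33 to 34 for any change and 0 for RST day 35 vs LST day 35 and all node comparisons. With the replicate number as a block the counts were 33, 32, 29, 14 and 0 against LST and 23, 5, 0 and 0 from day to day. Same-numbered joint samples correlated from -0.37 to 0.68, and in no pair of groups was every correlation over 0.1, so the numbers were not taken as pairs. They were all positive for RST day 14 with day 21 (0.09 to 0.68, other numbers -0.56 to 0.29) and RST day 35 with LST day 35 (0.08 to 0.19, other numbers -0.22 to 0.12), and for RST day 3 with day 14 and day 21 with day 35. As for nodes, the block by animal over Implant and ContraImplant nodes left 0 members called. Low counts limit Oas1g, Mx2 and the ligands.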
